A study of Homo sapiens with 47 samples.

Results

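The interferon-stimulated genes described here are 40 listed genes that cells switch on after exposure to interferon, and they were matched by symbol to the rows of a table of 25739 genes. All 40 had a row. They were followed in single LM2 cells, a human triple-negative breast cancer line derived from MDA-MB-231 and selected for lung metastasis. The circulating tumor cells (CTCs) came from immune-deficient NSG mice in which GFP-labelled LM2 tumors grew at a mammary site, and they were enriched from blood by a size-based device, picked one by one as GFP-positive cells after staining for CD45, and sequenced by SMARTseq2, a full-length method without molecular identifiers. Values exist for 37 CTCs from 5 mice, named 5541 (2 CTCs), 5542 (4), 5545 (10), 5546 (17) and 5549 (4), and for 6 LM2 cells grown in culture, which are counted here as 1 sample because nothing says that they came from separate cultures. All groups share the same tumor line, and no treatment with a drug or interferon is named for any group. NSG mice lack mature T, B and NK cells but keep myeloid cells.

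Type I and type III interferons bind receptors that signal through JAK kinases to transcription factors, STAT2 and IRF9 among them, that bind the interferon-stimulated response element (ISRE) in gene promoters. Genes induced by interferon gamma often hold a shorter palindromic site (GAS). The induced genes restrict viruses at many steps, and several of them (IFITM3, LGALS3BP, SP100) also have a basal level without added interferon in many tumor lines, whereas others (the IFIT, OAS and MX genes) are usually low until interferon or double-stranded RNA is sensed.

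Promoter stretches of some members with higher and some with lower means in the comparison below are shown first. They were chosen among members whose promoter holds a match to the ISRE. RefSeq promoter windows (GRCh38.p14, 250 bases before to 50 after the start, 300 in all) matched 32 of the 40 members. The ISRE core (GAAA, any 2 bases, GAAA) was found on either strand in 21 of the 32, or 65.6%, against 3.65% of all 27305 promoters. The GAS core (TTC, any 3 bases, GAA) was found in 10 of the 32, or 31.25%, against 7.88% of all promoters, and the letters of both motifs may overlap. In the stretches below, written 5′ to 3′ along the gene and lying before its start, capitals mark the matches to the ISRE core.
ISG15, chr1:1013374-1013409, + strand: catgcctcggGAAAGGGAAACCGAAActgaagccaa
IFIT1, chr10:89392497-89392539, + strand: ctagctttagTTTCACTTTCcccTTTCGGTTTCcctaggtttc
IFIT3, chr10:89327831-89327894, + strand: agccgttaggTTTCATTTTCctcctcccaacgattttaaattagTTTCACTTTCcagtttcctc
IFIT5, chr10:89414513-89414567, + strand: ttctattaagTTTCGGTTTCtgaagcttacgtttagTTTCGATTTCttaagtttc
IFI27, chr14:94110618-94110660, + strand: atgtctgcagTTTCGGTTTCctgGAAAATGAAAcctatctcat
IFITM1, chr11:313990-314019, + strand: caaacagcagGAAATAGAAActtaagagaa
IFITM3, chr11:320876-320922, - strand: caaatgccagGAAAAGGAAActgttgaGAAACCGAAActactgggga
BST2, chr19:17405735-17405770, - strand: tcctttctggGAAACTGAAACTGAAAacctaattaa
LGALS3BP, chr17:78979962-78979991, - strand: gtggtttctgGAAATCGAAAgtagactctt

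Several members lie in clusters (GRCh38, GENCODE release 44): the 4 IFIT genes between positions 89283694 and 89421605 of chromosome 10, the 3 IFITM genes between 303655 and 329475 of chromosome 11, and OAS1, OAS3 and OAS2 between 112905856 and 113011723 of chromosome 12. A match describes letters in the window and not the use of a site. Members with higher and with lower means in CTCs both hold it, as IFI27 and IFIT5 show.

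Each value is the read count of a gene scaled by a size factor for its cell, called normalised reads below. The recovered depth was 469614 to 2041333 reads per CTC and 776949 to 1186197 per cultured cell. CTCs had 2313 to 12299 genes detected and cultured cells 7369 to 13679, and 3 cultured cells (LM-1, LM-P3 and LM-P4, with at least 11912 genes) stood apart from the other 3 (at most 8467). VIM, CD44, CAV1 and AXL, mesenchymal genes of the line, were read in every cell. FN1 and TGFBI, of the same list, were read in 32 and 31 CTCs and in 5 cultured cells each. Of the epithelial genes, KRT8 and KRT18 were read in every cell. KRT19 was read in 31 CTCs and 6 cultured cells, EPCAM in 8 and 5, and CDH1 in 1 and 0. AXL, however, was at 4.85 in 5546-s9 and 13.8 in 5546-s1, against 2378 to 6511 in the culture. 5546-s9 also had the highest PTPRC of all CTCs (205), with CORO1A at 367, S100A9 at 94.9, CXCR2 at 59.8 and FCER1G at 12.4. LCN2 was at 0.539 in that cell, and LAPTM5, TYROBP, CD79A, LYZ, SRGN, CSF3R, FCGR3B and MPO were at 0. Its other mesenchymal genes were read, VIM at 2893, CD44 at 543, FN1 at 534, CAV1 at 334 and TGFBI at 148. The markers of 5546-s9 were thus mixed and go against the label in part. Without 5546-s9, the only member whose log2 ratio of CTCs to culture changed sign was PARP9 (given with its values), 0 members met the rule of size described below, and the difference in member score was -1.08 in place of -1.10. Without both cells these were again PARP9, 0 members and -1.08. Reads counted under blood cell genes were also present in CTCs. The host blood was mouse, and the authors aligned reads to the human genome only. Whether mouse reads were counted under these genes or under members was not tested. The erythroid list (5 genes in the table) summed to 0 to 15571 in CTCs and the neutrophil list (6 genes in the table) to 0 to 574, against 0 for both in all 6 cultured cells, and PTPRC, which encodes CD45, had a read in 11 of 37 CTCs.

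IFITM3, LGALS3BP and IFITM2 were the most abundant members in CTCs. Per kilobase of annotated exon, IFITM3 ranked first of the 40 in CTCs at 216 normalised reads per kilobase (mean of mouse means), LGALS3BP followed at 101, just ahead of IFITM2, and IFI44 (93.9), ISG15 (80.4), BST2 (73.9) and IFITM1 (20.6) came next, while in the culture LGALS3BP ranked first at 344 and IFITM3 second at 149. IFITM3 and IFITM2 were detected in all 37 CTCs and all 6 cultured cells. LGALS3BP and SP100 were each missed in 1 CTC. ISG15 was detected in 27 of 37 CTCs (73.0%, exact 95% binomial interval 55.9 to 86.2%) and in all 6 cultured cells. Altogether 19 members were detected in at least 50% of the CTCs and 11 in under 25%. TRIM22 had reads in 2 CTCs and none in the culture, where a count of 0 allows up to 3 reads over the group. Intervals and limits of this kind cover counting error only.

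**Figure D1:**
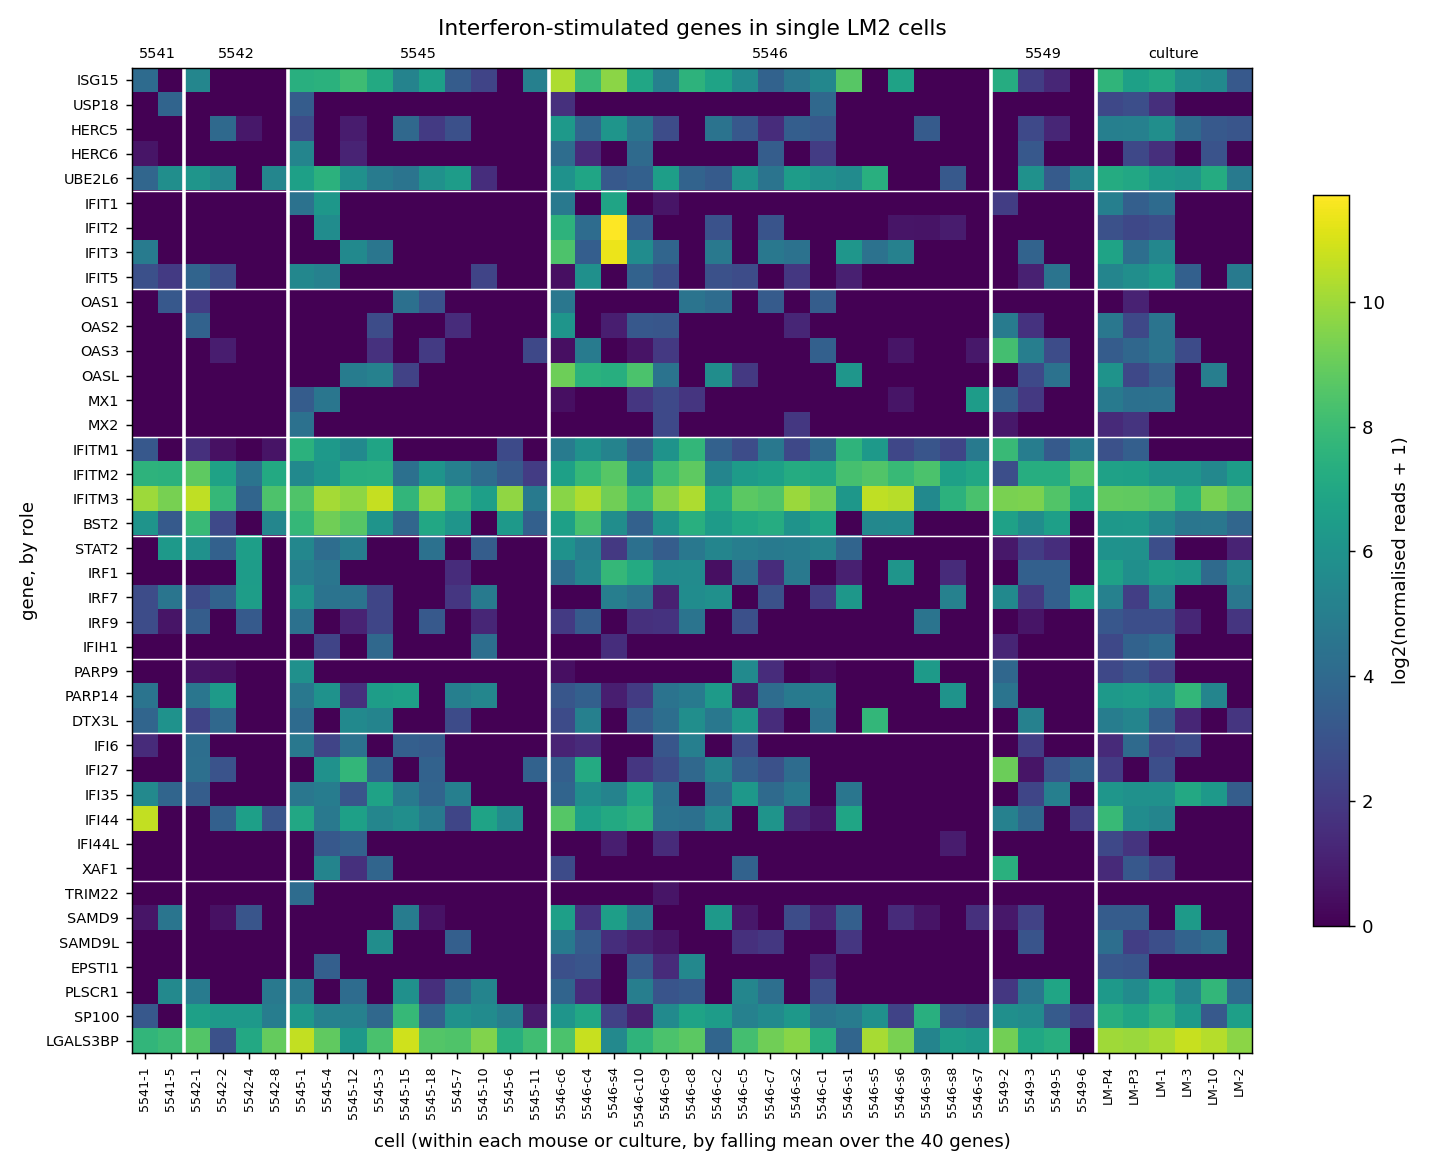
Heatmap of the 40 genes (rows, white lines between roles) in 37 CTCs and 6 cultured cells (columns, white lines between mice and culture), as log2(normalised reads + 1). IFITM2, IFITM3, SP100 and LGALS3BP fill nearly every column, whereas the IFIT, OAS and MX rows are mostly at 0 with a few bright cells such as 5546-c6, 5546-s4 and 5549-2.

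Between CTCs and culture, no member showed a difference that held in every mouse at the size set for it. A gene met that rule when the CTC mean of each of the 5 mice was at least 4-fold from the culture mean in 1 direction, with a pseudocount of 1 and the larger mean at least 8. Of the members 0 met it in either direction; of the 9164 genes with a group mean of at least 8, 0.0655% were higher and 5.31% lower (0.0233% and 1.89% of all 25739 genes). At 2-fold, 0 members were higher in every mouse (background 0.262%) and 4 lower (background 25.1%). Among the 29 members with such a mean, only IFITM3 had a higher CTC mean in all 5 mice (background 1.04%), and 13 members, or 44.8%, had a lower one in all 5 (background 60.3%). Their median log2 ratio was -0.38, against -1.20 over all 9164 genes, and 14 of the 29 lay above 0, or 48.3%, against 14.7% of all genes. With values scaled to equal read totals (RPM) in place of size factors, both moved up: the members' median was 0.88 and that of all genes -0.45, with 60% of 25 members and 34.4% of all genes above 0. Without mouse 5546 the members' median was -1.40 against -1.23 over all genes, and without the single CTC 5546-s4 it was -1.12 against -1.20. The log2 ratios below are by size factors and are to be read against the all-gene median of -1.20.

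A quasi-likelihood test (edgeR), on read sums of each mouse and of the culture, also called 0 of the 40 members, and it called 0% of 13813 genes in either direction. This test assumes that the culture, counted as 1 sample, varies as the mice do. At an unadjusted p under 0.05 it held 2 members, IFITM3 and IFITM2, and 241 genes in all, and the lowest adjusted p of a member was 0.999992. DESeq2 called 0 of the 32 members it tested and 0.119% of 11740 genes, all higher in CTCs, and limma on log2 means called 0 of 29 members and 0.0109% of 9164 genes in each direction, 1 gene. On 4 scalings (size factors, RPM, thinning to equal depth and edgeR's), 17 members had a higher and 16 a lower mean in CTCs on all 4, and the other 7 (ISG15, USP18, HERC6, OAS2, MX2, IRF9 and IFI6) changed sign. The same count over all genes was not made. In that order, 14.7%, 34.4%, 34.7% and 59.6% of all genes lay above 0 on each scaling. Of the members, 48.3% of 29, 60% of 25, 60% of 25 and 24 of 40 did. Relative to the median of all genes, 23 were above it and 13 below it on all 4. Except for edgeR, that median is over genes with a mean of at least 8, and the 40 include members with lower means. The pseudocount draws the ratios of such members toward 0. Among members with such a mean, 17 of 29 lay above the median by size factors, 16 of 25 by RPM and 15 of 25 after thinning.

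The IFITM proteins and BST2 (tetherin), which act in membranes against entry or release of enveloped viruses, had means above the culture as a group, 4 of 4, and did so on all 4 scalings. IFITM3 measured 823 normalised reads in the 2 CTCs of mouse 5541, 531 in 5542, 626 in 5545, 645 in 5546 and 452 in 5549, against 423 ± 149 (SD, n = 6 cells) in the culture. Its lowest CTC was 5542-4 at 13.0, its median 569 and its highest 5545-3 at 1646, so the CTCs reached on both sides of the culture's range of 171 to 629. The log2 ratio was 0.54 ± 0.32 (SD, n = 5 mice) and edgeR's log2 change 1.88 ± 0.65 (SE) at an unadjusted p of 0.0143 (adjusted 0.999992, edgeR).

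IFITM2 had mouse means of 184, 179, 59.4, 204 and 176 (in the order 5541, 5542, 5545, 5546, 5549) and a culture mean of 78.5 ± 22.9. The means of 4 mice were thus above the culture and that of 5545 below it. Its log2 ratio was 1.02 ± 0.73, and 0.56 without the 11 CTCs that had a PTPRC read. Over the 37 CTCs its level had a Spearman correlation of 0.57 with the summed neutrophil markers, that of IFITM1 0.36 and that of IFITM3 -0.03. These points share libraries and depth, and the part of neutrophil RNA in the IFITM1 and IFITM2 levels was not tested; IFITM2 was at 43.1 or more in each cultured cell, where those markers were at 0.

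IFITM1 was the member of this family that varied most between mice. Its mean was 78.3 in mouse 5549, 46.4 in 5546 and 42.0 in 5545, but 4.22 in 5541 and 0.781 in 5542, against 2.86 ± 4.62 in the culture. In the culture only LM-P3 (10.7) and LM-P4 (6.46) had any read, and 19 of 37 CTCs exceeded the higher of these. The highest CTCs were 5549-2 at 248 and 5546-c8 at 211, while 5542-4 and 5545-10 were among those at 0. The log2 ratio was 3.20 ± 2.37 and was 2.66 to 3.95 when 1 mouse or cultured cell was left out; edgeR gave an unadjusted p of 0.0749. BST2 averaged 81.4 ± 44.7 over mice against 42.8 ± 28.0 in the culture, with 575 in 5545-4 as its highest CTC and 0 in 7 CTCs. The 3 IFITM genes are close relatives in sequence, and reads that mapped to several places were discarded by the authors, so their levels may be undercounted by unequal amounts.

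**Figure D2:**
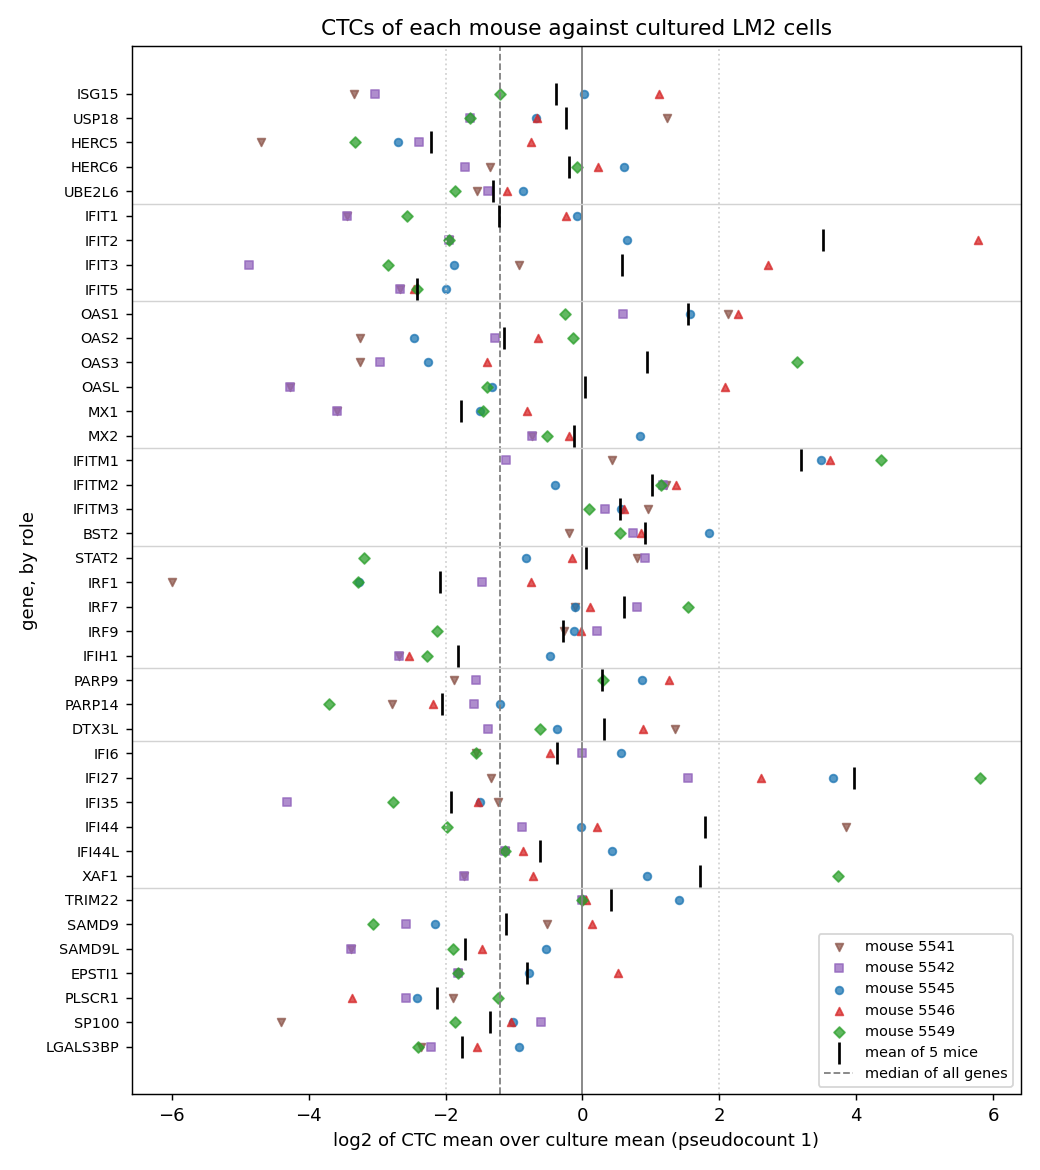
Log2 ratio of the mean over each mouse's CTCs to the mean of the 6 cultured cells (x axis) for the 40 genes by role (y axis), with symbols for the 5 mice, a black bar for the mean of the mice, a dashed line at the median of all genes (-1.20) and dotted lines at 4-fold. The bar of each of the 4 membrane genes lies above 0, and for no gene do all 5 mouse symbols lie beyond a dotted line on 1 side.

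The IFI genes split. IFI27, a gene for a small hydrophobic membrane protein strongly induced by interferon alpha, had the largest log2 ratio of the 29 members, 3.97 ± 2.64. Its mouse means were 0 in 5541, 6.38 in 5542, 31.0 in 5545, 14.5 in 5546 and 141 in 5549, against 1.53 ± 2.53 in the culture, where 2 of 6 cells had reads. The mean of 5549 came largely from 1 cell, 5549-2 at 543, with the other 3 CTCs of that mouse at 0.561, 6.97 and 13.3. Altogether 17 CTCs lay above the highest cultured cell (5.97), in 4 of the 5 mice. The log2 ratio was 2.46 without mouse 5549, and 2.46 to 4.59 when 1 mouse or cultured cell was left out. edgeR gave a log2 change of 6.43 ± 3.14 (SE) at an unadjusted p of 0.0635.

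IFI44, a cytoplasmic protein gene, depended on 1 CTC. Cell 5541-1 had 1595 normalised reads, 47.2% of the sum over all CTCs, and the other CTC of that mouse had 0. The next highest were 5546-c6 at 391 and 5546-c10 at 185. Its log2 ratio was 1.80 ± 2.20 with all mice and -0.44 without mouse 5541, and the 3 cultured cells with fewer genes were at 0 while the other 3 had 39.8, 51.0 and 236. IFI35, a partner of NMI, went the other way: its mouse means were 28.9, 2.52, 23.9, 23.4 and 9.25, each below the culture mean of 69.2 ± 39.6, and no CTC exceeded the highest cultured cell (133). IFI6, an inhibitor of apoptosis and of viral replication at the endoplasmic reticulum, was low in both, at 3.19 ± 2.60 and 4.42 ± 5.82, and IFI44L was detected in 5 CTCs and 2 cultured cells.

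The IFIT genes, whose proteins bind viral RNA ends, rested on few cells for IFIT2 and IFIT3. IFIT2 was 0 in every CTC of mice 5541, 5542 and 5549. In 5545 it was detected in 1 CTC, 5545-4 at 50.9, and in 5546 it reached 3350 in 5546-s4 (3503 reads) and 190 in 5546-c6, with the remaining CTCs of that mouse at 16.6 or less. The culture had 4.75 to 6.46 in the 3 gene-rich cells and 0 in the others. Thus 92.2% of the IFIT2 sum over CTCs came from 1 cell, and the log2 ratio of 3.52 ± 3.36 was 0.35 without that cell and -0.77 without mouse 5546.

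IFIT3 followed the same cell, with 2602 in 5546-s4, 350 in 5546-c6 and 69.0 or less in the other CTCs; it was detected in 15 CTCs and 3 cultured cells. IFIT1 was highest in 5546-s4 too, at 113, and was detected in 6 CTCs, of which 5545-4 had 72.1. Over the 37 CTCs the Spearman correlation of IFIT2 with IFIT3 was 0.45 and that of IFIT1 with IFIT3 0.16, with most points at 0. IFIT5 differed from its relatives: its mouse means were 4.60, 4.57, 7.94, 5.46 and 5.62, the narrowest relative range of the IFIT genes, all below the culture at 34.5 ± 28.4, for a log2 ratio of -2.42 ± 0.28. Its edgeR log2 change was -1.22 ± 1.44 (SE) at an unadjusted p of 0.413. Without the 3 gene-rich cultured cells its log2 ratio was -1.02. IFIT2 and IFIT3 overlap the annotated span of LIPA and strand was not used in counting. LIPA had 0 reads in 5546-s4 and 39.5 normalised reads in 5546-c6, and its part in the IFIT reads was not tested.

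**Figure D3:**
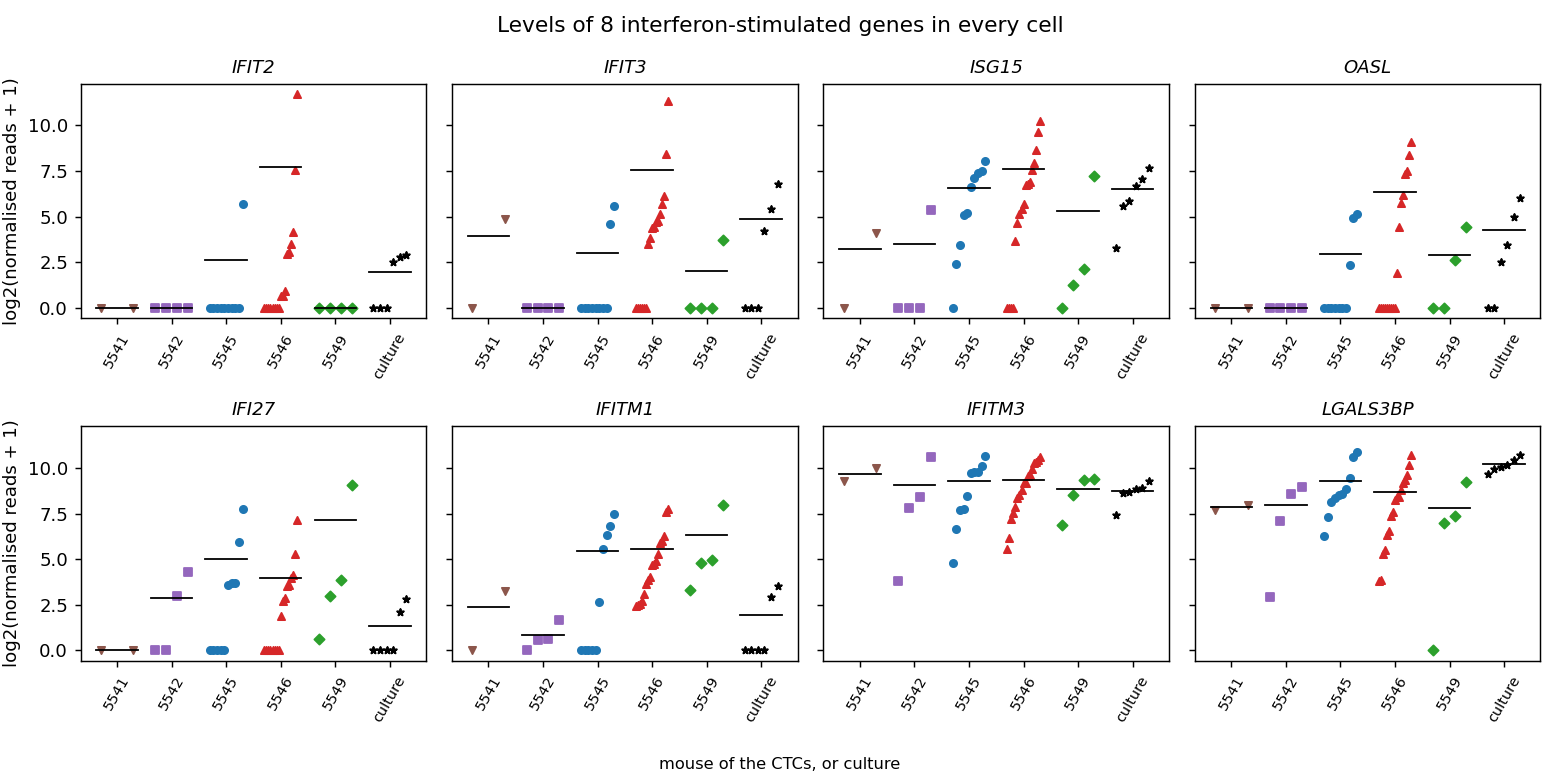
Levels of 8 genes in every cell, as log2(normalised reads + 1), by mouse and culture; each symbol is a cell and each line the log2 of the group mean plus 1. IFIT2 and IFIT3 each have 1 far point in mouse 5546 (3350 and 2602), IFI27 has 1 in mouse 5549 (543), while IFITM3 is above 0 in every cell.

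Of the ISG15 pathway, in which ISG15 is joined to proteins through the E2 enzyme UBE2L6 and the ligase HERC5 and removed by USP18, ISG15 itself ranged most widely. It was 1221 in 5546-c6 and 811 in 5546-s4, followed by 402 in 5546-s1 and 266 in 5545-12, and it was 0 in 10 CTCs. Mouse means were 8.16, 10.2, 92.8, 198 and 39.0 against 91.2 ± 69.7 in the culture (8.78 to 203), so 2 mice were above and 3 below. HERC5 was also highest in 5546-c6 (76.1) and 5546-s4 (68.8), but all 5 mouse means, 0 to 14.4, lay below the culture at 25.1 ± 18.0, for a log2 ratio of -2.22 ± 1.44. UBE2L6 was more even, at 26.5 to 53.9 over mice and 99.3 ± 48.0 in the culture. USP18 and HERC6 averaged 1.65 and 1.84 in CTCs, and were detected in 4 and 9 of them.

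The oligoadenylate synthetases, which activate RNase L on double-stranded RNA, led in 5546-c6 for OAS1, OAS2 and their relative OASL and in 5549-2 for OAS3. OASL, which lacks that activity and binds RIG-I, was 555 in 5546-c6, 334 in 5546-c10, 178 in 5546-c4 and 162 in 5546-s4, and it was detected in 13 CTCs. OAS3 was 293 in 5549-2, 76.0% of its sum, and 31.4 in 5549-3 of the same mouse, and its log2 ratio of 0.94 ± 2.60 was -2.28 without mouse 5549. OAS1 and OAS2 were highest in 5546-c6, at 24.1 and 67.4. MX1, a GTPase against influenza viruses, had 88.5 in 5546-s7 and 23.3 or less in the other CTCs, with all mouse means (0 to 5.86) below the culture at 11.1 ± 12.5. In the culture MX1 was read only in the 3 gene-rich cells (19.0 to 27.4), and against the other 3 cells its log2 ratio turned from -1.78 to 1.81. MX2 was detected in 4 CTCs, at most at 19.8 in 5545-1.

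Among the transcription factors and the sensor, IRF1, which responds to interferon gamma and to inflammatory cytokines, had mouse means of 0, 22.0, 5.60, 36.9 and 5.59, all below the culture at 62.8 ± 32.1, with 219 in 5546-s4 as the highest CTC and a log2 ratio of -2.08 ± 2.03. IRF7, the amplifier of interferon alpha genes, averaged 23.6 ± 13.8 over mice and 15.2 ± 15.7 in the culture, with 125 in 5549-6. STAT2 was detected in 24 CTCs at 22.3 ± 17.1 over mice against 21.5 ± 30.6, and IRF9 in 17 CTCs at 3.09 ± 1.75 against 3.98 ± 3.14. IFIH1 (MDA5), a cytoplasmic sensor of double-stranded RNA, was detected in 5 CTCs. PARP9 and DTX3L, whose proteins form a complex and whose genes overlap head to head, had log2 ratios of 0.28 and 0.31, and their Spearman correlation over the CTCs was 0.13. The highest CTC for PARP9 was 5546-s9 at 82.5, and its log2 ratio without that cell was -0.06. PARP14 was lower than the culture in all 5 mice, at 18.9 ± 11.8 against 81.5 ± 73.2.

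LGALS3BP, a secreted glycoprotein gene, was the member furthest below the culture in normalised reads. The culture held 818 to 1686 in its 6 cells, 1177 ± 311, and the mice averaged 229, 254, 620, 405 and 221. Only 5545-15 (1886) and 5546-c4 (1697) were above the culture's range, and 5549-6 was at 0. Its log2 ratio was -1.76 ± 0.64 and stayed between -2.08 and -1.63 when 1 mouse or cultured cell was left out; edgeR gave -0.53 ± 0.65 (SE) at an unadjusted p of 0.431. PLSCR1, a phospholipid scramblase gene, averaged 18.8 ± 10.8 against 85.4 ± 71.5, with no CTC above the highest cultured cell (214) and 117 in 5549-5 as its highest. SP100, a nuclear body component, averaged 42.5 ± 26.2 against 110 ± 64.3. XAF1, a pro-apoptotic gene, was 172 in 5549-2 and 38.2 in 5545-4, was read in 6 CTCs, and its log2 ratio of 1.71 ± 2.30 was -0.36 without mouse 5549. SAMD9, a translational inhibitor, had 96.9 in 5546-c6 and 92.8 in 5546-s4, and its relative SAMD9L and EPSTI1 were read in 11 and 7 CTCs.

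Per cell, the members were summarised as the mean of log2(normalised reads + 1) over all 40, called the member score. The mouse means were 2.00 (5541), 1.69 (5542), 2.23 (5545), 2.45 (5546) and 2.06 (5549), or 2.09 ± 0.28 (SD, n = 5 mice), and the culture was at 3.18, a difference of -1.10. Over the 29 members with a mean of at least 8 the difference was -1.31, against -1.87 over all 9164 genes with such a mean. Against the 3 cultured cells with fewer genes, the member score differed by -0.06, and like for like the 29 members differed by -0.18 and all genes by -1.04. Members took 0.237% ± 0.0634 of the reads in mice and 0.192% in the culture. The median CTC had 19 members detected (7 to 35) and the median cultured cell 26 (15 to 38), and with each cell thinned to 469614 reads these were 17 and 25.5. The gene-rich cultured cells had 33 to 36 members after thinning and the others 14 to 18.

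**Figure D4:**
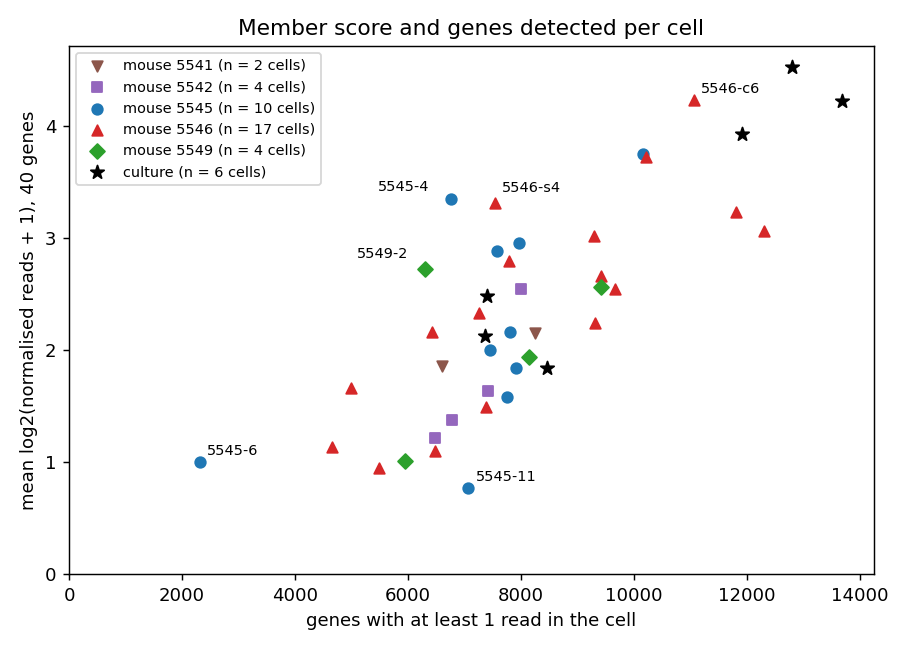
Member score (y axis, mean of log2(normalised reads + 1) over 40 genes) against the number of genes with a read (x axis) for each cell, by mouse and culture. The score runs from 0.769 (5545-11) to 4.23 (5546-c6) in CTCs, and 5545-4, 5546-s4 and 5549-2 lie high for their number of genes.

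CTCs of 1 mouse covered most of the range of all CTCs. In mouse 5545 the score ran from 0.769 to 3.74 and in mouse 5546 from 0.951 to 4.23. Over the 37 CTCs the score had a Spearman correlation of 0.69 with the genes detected and 0.11 with the reads, and both the score and the gene number come from the same libraries. In mouse 5546 the 9 libraries with the letter c in their name had a score of 3.06 ± 0.61 and 10094 ± 1415 genes, and the 8 with the letter s 1.77 ± 0.80 and 6275 ± 1116 genes (SD over cells); the labels do not say what the letters mean, and the score and the gene number moved together. With the straight line of score on genes detected taken off, 5545-4 ranked first among CTCs, then 5546-s4, 5549-2 and 5546-c6. 5545-4 was also the shallowest cell, at 469614 reads. Thinned to equal reads and with no line taken off, 5546-c6 remained the highest and 5545-4 ranked 5, against 4 before thinning.

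Cells with high member levels shared some members and not others: 5546-c6 and 5546-s4 were the 2 highest CTCs for ISG15, HERC5, IFIT2, IFIT3 and SAMD9. 5546-c6 had reads for 35 of 40 members, 0.688% of its reads, and was the highest CTC for 6 of them: ISG15, HERC5, OAS1, OAS2, OASL and SAMD9. It was also the highest CTC for RSAD2 (viperin), at 29.5. 5546-s4 had reads for 24 members and the largest share, 0.960%, and led for IFIT1, IFIT2, IFIT3 and IRF1, while IFI27, XAF1, OAS3 and MX1 were at 0. 5549-2 led for IFI27, OAS3, IFITM1 and XAF1 and was the highest CTC for GBP3 (443), a guanylate-binding protein gene, with IFIT2, IFIT3 and OASL at 0. 5545-4 led for BST2 and UBE2L6 and 5545-1 for HERC6, MX2 and TRIM22.

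Blood cell transcripts were unequal among these cells. 5546-s4 had the highest CORO1A of all CTCs, 644, with S100A9 at 324, CSF3R at 27.7, FCER1G at 55.5 and 2.87 for PTPRC, beside the highest VIM of all cells, 20688. In 5546-s4 LAPTM5 was at 233, SRGN at 94.7, TYROBP at 67.9, CXCR2 at 16.3 and LCN2 at 2.87. LYZ, CD79A, FCGR3B and MPO were at 0 in that cell. 5545-1 had CORO1A at 47.5 and no read for PTPRC or any neutrophil gene in the table, and 5545-4 had S100A9 at 12.7 with CORO1A and PTPRC at 0. 5549-2 had PTPRC and CORO1A at 0, S100A9 at 6.70, LYZ at 39.5 (second among CTCs after 5549-6 at 128) and HBB, a globin, at 1305. In 5549-2 LAPTM5 was at 107 and SRGN at 44.9, and TYROBP, FCER1G, CD79A, CSF3R, CXCR2, FCGR3B, MPO and LCN2 were at 0. 5546-c6 had PTPRC at 0, S100A9 at 27.4, MPO at 3.74, CORO1A at 3.33, FCER1G at 1.25 and HBB at 2003. Over the 37 CTCs the score had Spearman correlations of 0.10 with the neutrophil and -0.16 with the erythroid sum. With the leukocyte sum it was -0.09, and 0.21 without LAPTM5 and SRGN, which were read in every cultured cell too (75.3 to 400 and 107 to 812). The other 6 genes of that list summed to 0 to 771 in CTCs and 0 to 7.96 in the culture. The part of leukocyte RNA in the IFIT levels of 5546-s4 was not tested.

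ISG15 was the member whose level ran closest to the mean of the other 39 over CTCs (Spearman 0.79, and 0.73 with the rank of genes detected held constant), followed by BST2 at 0.64. ISG15 with OASL gave 0.57 and with IFIT3 0.50. For the 19 members with a mean of at least 8 that were detected in at least 50% of the CTCs, the median over the 171 pairs was 0.20, against 0.13 over all pairs of the 6138 genes passing the same limits. The 5 genes outside the list whose level was most like the score over the 37 CTCs were CERT1 (0.75), ASNSD1 (0.72), SUPT7L (0.72), NIPSNAP3A (0.68) and MKNK1 (0.67), and their own correlations with the genes detected were 0.67, 0.66, 0.49, 0.63 and 0.54.

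Of the rest of the interferon pathway, the human receptor and kinase genes were read and the human ligand genes hardly at all. Only human genes were counted, so interferon transcripts of the mouse host have no row here. Of 21 interferon genes 2 had a row, IFNA5 and IFNL3, each with 1 read in 1 CTC and none in the culture. All 10 receptor and JAK-STAT genes described here were read in both, and 0 of the 10 tested passed edgeR's test. Of the 10, 2 had a mean above and 8 below the culture, with a median log2 ratio of -0.95 beside -1.20 for all genes. IFNGR2, a subunit of the interferon gamma receptor, averaged 70.8 ± 63.3 over mice against 108 in the culture, STAT3 67.9 ± 59.9 against 147, JAK1 47.8 ± 39.6 against 35.2 and IFNGR1 30.4 ± 27.7 against 99.3.

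Of 12 genes for nucleic acid sensing, 11 were tested and 0 passed, with 2 means above and 10 below the culture and a median log2 ratio of -1.57. MAVS, the mitochondrial adaptor of RNA sensors, averaged 18.4 ± 8.49 against 52.0 and was highest in 5546-s4 at 253. The kinase gene EIF2AK2 (PKR) averaged 17.0 ± 16.03 against 87.7, TBK1 16.005 ± 12.4 against 26.9 and CGAS, the sensor of cytoplasmic DNA, 15.9 ± 16.1 against 77.6. Of the 5 feedback inhibitors 0 passed edgeR's test. SOCS3, which blocks JAK kinases, met the rule of size as lower in CTCs (background 5.31%). It was at 8.36 ± 6.96 against 73.7, with the highest mouse at 16.3. That culture mean rested largely on LM-10 (164) and LM-3 (163), with the other cultured cells at 25.1 to 35.6. PIAS1, PTPN2 and PTPN6 were at 45.5 against 107, 40.3 against 105 and 4.14 against 0.663.

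Of 20 further interferon-induced genes 18 had a row and 15 were tested, of which 0 passed and 1 had an unadjusted p under 0.05, with 6 means above and 12 below the culture. That gene was ISG20, an exonuclease gene, at 177 ± 148 over mice against 31.9 (edgeR log2 change 3.75, unadjusted p 0.0305), with means above the culture in 4 of 5 mice. Its highest CTCs were 5542-1 at 1251, 5545-1 at 619 and 5546-c6 at 521. The immunoproteasome genes PSMB8 and PSMB9 were at 114 ± 40.5 against 147 and 37.6 ± 12.3 against 60.9. GBP3 was at 30.0 ± 46.8 against 21.1. CXCL10, a chemokine gene, had no read in any CTC, and in the culture it was read only in LM-P3, at 1.19. On edgeR's scaling IFNGR2, STAT3, TBK1, PSMB8 and PSMB9 had log2 changes of 0.67, 0.25, 0.58, 1.02 and 0.66, opposite in sign to their ratios by size factors.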

How the data were processed

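Single-cell RNA-seq of 37 CTCs from 5 mice and 6 cultured LM2 cells was used; of 47 labelled samples, 4 CTCs are without a column in the table and were not analysed here. The deposited values are a signal: the authors ran STAR 2.7.10a against GRCh38 (GENCODE annotation 38), counted reads that mapped to 1 place regardless of strand, and scaled each cell with DESeq2 1.42.1. Names came from GENCODE release 44. All values (100%) were whole multiples of the smallest in their cell (tolerance 0.001), so the reads were recovered; they gave the depth.

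The mouse, read from the library name, was the replicate for CTCs, and the cultured cells were counted as 1 sample. Mouse and culture means were compared by the rule of size (4-fold, pseudocount 1, mean of at least 8). Reads summed per mouse and for the culture were tested with edgeR 4.0.16 (4 residual degrees of freedom), with DESeq2 1.42.0 and limma 3.58.1 as alternatives, all Benjamini-Hochberg adjusted over all genes at 0.05. The edgeR test and the rule of size were also run on simulated data with large set changes. Those runs do not show how well smaller changes are found at the spread between these mice. Correlations over CTCs are descriptions. Other alternatives were other scalings, pseudocounts, averages and filters, and leaving out each mouse or cultured cell.

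The members and the lists of pathway and marker genes were chosen with earlier results of these data known. Named members are those with the 8 largest log2 ratios in each direction at a mean of at least 8, the 5 highest CTC means, those called, and those with over 50% of the CTC sum in 1 cell; others are given in short. Up to 4 genes per pathway list were named by CTC mean. 1 gene of the receptor list is not reported here. PARP9's value without 5546-s9, RSAD2, CXCL10 and the marker genes given for single cells were chosen after their values were seen. Nothing in the labels says whether libraries of 1 mouse were prepared together, and p-values measure the spread between these mice.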

Additional observations from a re-analysis of the deposited data

Results flagged for a closer look

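A value was flagged when it lay far from the rest of its group of 4 to 10 cells or of the 5 mouse means, by Dixon's criterion on log2 values for genes, over the member score, the members detected and 16 genes. Of 88 groups examined 10 were flagged, and chance flags about 1 in 20; that rate does not apply to 6 of the 10, in which 1 cell had reads and the others were all at 0. Single high CTCs were flagged for IFIT2 in mouse 5545 (5545-4 at 50.9, others 0), XAF1 in 5549 (5549-2 at 172, others 0), OAS3 in 5542 (5542-2 at 0.922, others 0), IRF1 in 5542 (5542-4 at 88.1, others 0), PARP14 in 5549 (5549-2 at 21.4, others 0) and IFI35 in 5542 (5542-1 at 10.1, others 0). BST2 in mouse 5549 was low in 1 CTC (5549-6 at 0, others 52.7 to 102). In the culture LM-2 was low for PARP14 (0, others 39.7 to 216) and IFI35 (10.0, others 59.7 to 133). Of the mouse means of IFITM2, that of 5545 was low (59.4, others 176 to 204).

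IFITM1 differed between mice against the culture mean of 2.86: every CTC of mouse 5546 (mean 46.4) and of mouse 5549 (mean 78.3) was above it, and every CTC of mouse 5542 (mean 0.781) was below it. The difference was not tested.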

How the results depend on the processing

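Of the results that answer a comparison, 111 of their alternative values lay with the reported one and 15 moved. The count of members lower by the rule of size (0) was 0 to 1 with a mouse or cultured cell left out (IFIT5 without mouse 5545, LM-10, LM-2 or LM-3; HERC5 without mouse 5546), 3 with medians over cells (IFIT5, MX1, SAMD9L), 1 at a pseudocount of 0.1 (IFIT5) and 4 at 2-fold (IFIT5, PARP14, IFI35, PLSCR1; background 25.1%); the count higher was 1 (IFI44) without LM-1, LM-P3 and LM-P4. The edgeR counts stayed at 0 throughout. The score difference of -1.10 was -1.37 to -0.830 with 1 mouse or cultured cell left out, -0.660 with RPM, -0.689 with thinned cells, -1.81 and -0.701 at pseudocounts of 0.1 and 4, and -0.0607 without LM-1, LM-P3 and LM-P4. Members detected per CTC were 14.0 at a minimum of 8. Log2 ratios turned for IFIT2 (-0.77 without mouse 5546, leave-one-out up to 3.83, -1.61 with medians), IFI44 (-0.44 without 5541, up to 3.33), XAF1 (-0.36 without 5549, up to 2.36, -0.85 with medians), OAS3 (-2.28 without 5549, up to 1.41, -0.87 with medians) and MX1 (1.81 without LM-1, LM-P3 and LM-P4). The cause was not tested. Leaving out LM-1, LM-P3 and LM-P4, 5545-6, 5546-s4, 5546-s9, 5546-s9 with 5546-s1 or the CTCs with PTPRC was chosen after seeing the data, as was the leukocyte sum without LAPTM5 and SRGN. No paired analysis was possible because library numbers only name picked cells and the culture shares none with the mice. With 2 CTCs in mouse 5541, 4 in 5542 and 4 in 5549, an undetected member may be below detection in a cell rather than absent.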
